A study of Arabidopsis thaliana with 10 samples.

Results

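In senescing Arabidopsis leaves, 88 of 12184 probe sets tested had a higher signal in NahG plants and a lower signal in coi1 plants than in the wild type of the same stage. They were chosen from the measured values themselves. A probe set was taken where the mean log2 signal of NahG exceeded that of the stage 6.0 wild type by at least 0.8, where coi1 lay at least 0.5 below that wild type, and where the wild type had not dropped by 1 or more between stages 3.9 and 6.0. A set of 94 probe sets met these limits, and 6 of them were left out by name. Of the 88, 30 are annotated with 1 gene, 2 with several, and 56 have no gene name in the annotation used here, so those are given by probe set ID.

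Signals came from 10 ATH1 arrays, 2 for each of 5 groups. The groups were wild type leaves at stage 3.9 and leaves at stage 6.0 from the wild type and from NahG, ein2 and coi1 plants. In the usual Arabidopsis growth scale the first stage is the end of rosette growth and the second the opening of the first flower. All plants grew untreated on compost in a growth room, and fully expanded leaves were taken. The mutants and NahG are labelled as Columbia and the wild type as Col-0, apart from stage 3.9 array 2, which is labelled Col-5. Wild type stage 6.0 array 2 shares its stock with that Col-5 array and has a title coded like it. The labels therefore disagree on the accession of this array. NahG plants carry a bacterial salicylate hydroxylase transgene, which converts salicylic acid to catechol. The promoter of the transgene and the alleles of ein2 and coi1 are not given in the sources used here. In each wild type group, array 1 came from stock N933 and array 2 from stock N1644, so the wild type pairs mix seed stocks. The ein2 and coi1 labels share 1 stock code, and the NahG labels have none. No mutant or transgenic sample of stage 3.9 was analysed here, so a difference that existed before senescence and one that arose during it cannot be told apart. In whole leaves, fewer cells of a type and less RNA per cell cannot be told apart either. Nothing in the labels says that the 2 arrays of a group came from separate plantings, so the spread between them may be technical.

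Salicylate, jasmonate and ethylene are the hormones of the main leaf defence pathways, and all of them affect leaf senescence. COI1 is the F-box protein of the jasmonate receptor, which removes JAZ repressors so that transcription factors such as MYC2 can act. Salicylate signalling through NPR1 is known to hold down jasmonate-responsive genes. EIN2 is the membrane protein that carries the ethylene signal to EIN3, and ethylene and jasmonate act together on defensins such as PDF1.2.

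The arrays were alike in breadth, with 9738 to 10835 probe sets at a signal of 50 or more, and the 2 arrays of a group correlated at 0.941 to 0.977 across probe sets. The ubiquitin 3'/5' ratio, a sign of RNA integrity, was 2.12 and 2.24 at stage 3.9, between 1.3 and 1.54 on the stage 6.0 arrays of the wild type, ein2 and coi1, and 1.66 and 1.60 on the NahG arrays. The actin ratio overlapped between groups, with 2.60 and 2.11 in NahG and 1.54 and 2.56 in coi1, and the GAPDH ratio lay between 0.928 and 1.28 on all arrays. Of 6 leaf mesophyll markers 4 are named and were tested. All 4 gave strong signals on every array, from 239 for LHCB4.2, a light-harvesting protein, to 6002 for PSAE-1, a photosystem I subunit. Their NahG minus wild type differences ran from 0.04 for RCA, the activator of Rubisco, to 1.56 for PSAN, and their coi1 minus wild type differences from 0.19 to 0.31. The 2 guard cell markers named here, FAMA and GASA9, had signals between 19.2 and 471. GASA9, the one that was tested, differed by 0.94 in NahG and 0.47 in coi1. No marker of floral, trichome, vascular, myrosin or dividing cells is named. The part of RNA quality, photosynthetic RNA and guard cell RNA in the differences below was not tested.

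All differences are on the scale of log2 of the signal plus 16, an added constant that shrinks the differences of weak probe sets. Over the 88 probe sets the median NahG minus wild type difference was 1.37, with a range from 0.80 to 3.68, against a median of 0.01 over all probe sets tested. The median coi1 minus wild type difference was -0.97, from -3.77 to -0.50, against 0.04 over all. These differences chose the probe sets and are a description only. They reached 2 or more in NahG for 19 probe sets and -2 or less in coi1 for 10, and 4 probe sets passed both marks, 245928_s_at, 247573_at, 266142_at and 265058_s_at. The wild type change from stage 3.9 to 6.0, which the choice used only as a floor, had a median of 0.22 and a range from -0.97 to 4.59.

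**Figure D1:**
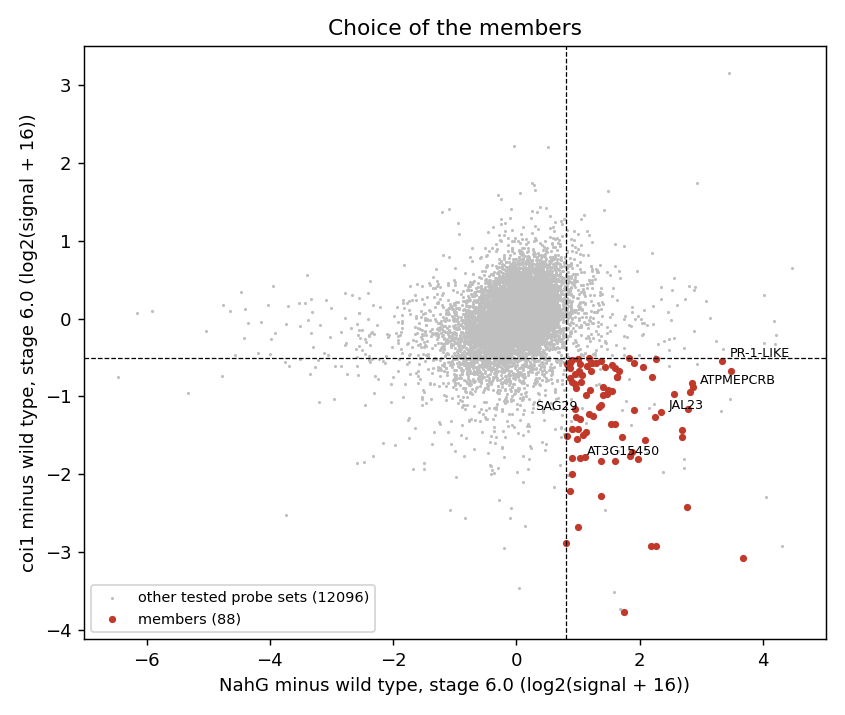
NahG minus wild type (x axis) against coi1 minus wild type (y axis), both at stage 6.0 and in log2 of the signal plus 16, for each probe set tested, with the 88 chosen ones coloured. The dashed lines are the limits of 0.8 and -0.5 that chose them, and PR-1-LIKE lies far along the NahG axis with a small coi1 difference.

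The limits cut through a continuous range. Just inside the NahG limit lay 260492_at at 0.801, AT1G16850 at 0.816 and 252367_at at 0.825, and just outside lay 250580_at at 0.7999, 248528_at at 0.7998 and 246620_at at 0.792. At the coi1 limit AT1G19380 at -0.502, 254915_s_at at -0.507 and 261459_at at -0.513 were inside, while AT5G61660 at -0.491, AT1G10585 at -0.485 and AT4G23680 at -0.469 were outside. At the stage limit 248793_at at -0.971, 245323_at at -0.959 and AT1G31710 at -0.940 were inside, and AT2G43530 at -1.12, 255786_at at -1.27 and 252618_at at -1.31 were outside. The genes left out by name that met all limits were BSMT1, JRG21, AT5G05600, AT4G16260, OSM34 and AT1G52000, and the plain case among them was OSM34, an osmotin-like defence protein, at 209 and 250.3 in the wild type, 1682 and 1507 in NahG and 35.5 and 65.8 in coi1 at stage 6.0.

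Array by array, the choice held for most but not all of the 88. Both NahG arrays lay above both stage 6.0 wild type arrays in 82, against a background of 26.6% of all probe sets tested, and both coi1 arrays lay below both of them in 81, against 20.2%. Both NahG arrays were above the 8 other arrays in 71, against 5.34%, and both coi1 arrays were below the 8 others in 45, against 3.22%. The values behind these counts chose the probe sets, so nothing is read from them. The wild type and NahG arrays overlapped in SAG29, AT4G18280, 252367_at, 252984_at, 266139_at and 266743_at. The wild type and coi1 arrays overlapped in SAG29, AT4G18280, AT1G16850, AT2G06480, LCR69, 249775_at and 254915_s_at. In 33 of the 88 the mean coi1 signal was under 16, the size of the added constant, so the size of the coi1 difference is compressed there.

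**Figure D2:**
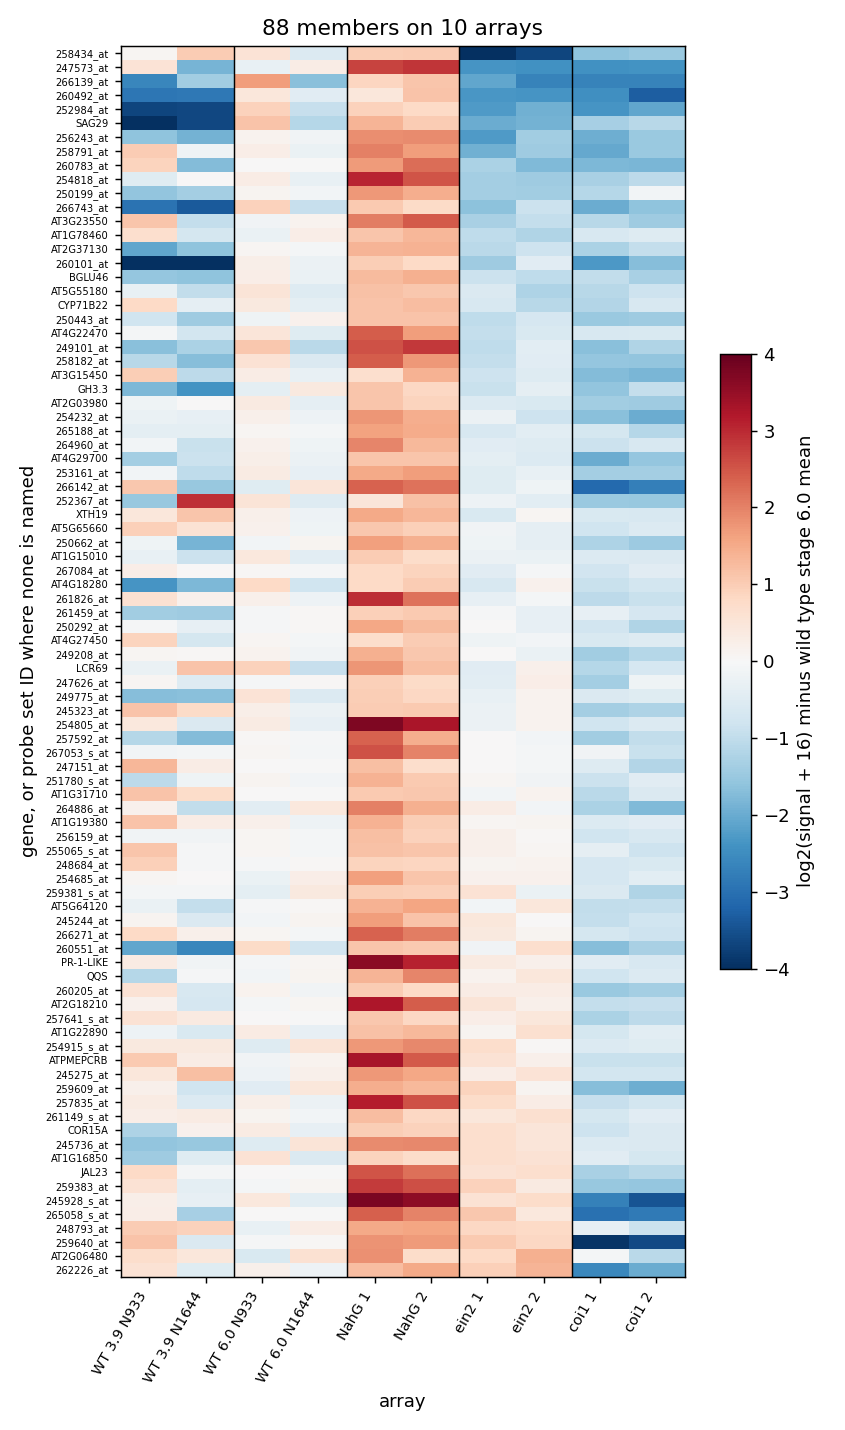
Log2 of the signal plus 16 of each of the 88 probe sets (rows) on each of the 10 arrays (columns), as the difference from the mean of the 2 stage 6.0 wild type arrays, with colours clipped at 4 in either direction. Rows are ordered by the ein2 difference, and the NahG columns are high and the coi1 columns low in nearly all rows, as chosen, while ein2 varies from row to row.

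Among the 30 named genes, 3 are defence proteins. PR-1-LIKE (AT2G19990), a relative of the pathogenesis-related protein PR-1, had the largest NahG difference of the named genes. Its signal was 37.7 and 22.6 in the wild type at stage 3.9 and 24.5 and 28.8 at stage 6.0. It reached 505 and 341 in NahG against 38.2 and 33.2 in ein2 and 15.4 and 11.2 in coi1. Only the NahG arrays stood far from the rest, and the coi1 arrays were the lowest of the 10, with differences from the wild type of 3.34 and -0.54. JAL23 (AT2G39330), a jacalin-type lectin, gave 114 and 53.8 at stage 3.9, 58.9 and 57.1 at stage 6.0 and 403 and 324 in NahG. In ein2 it gave 93.7 and 102 and in coi1 13.9 and 18.5. Both ein2 arrays lay above both stage 6.0 wild type arrays, by 0.62 ± 0.26 (SE), but the adjusted p was 0.447 in limma's moderated test. LCR69 (AT2G02100), the plant defensin PDF2.2, was less even. Its wild type signals were 298 and 810.3 at stage 3.9 and 696 and 185 at stage 6.0, so the 2 stocks stood in opposite orders at the 2 stages. Its signals of 1272 and 857 in NahG were above both stage 6.0 wild type arrays, whereas the coi1 signals of 156 and 219.8 straddled the lower of them.

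The 6 genes of the cell wall covered pectin, xyloglucan and structural proteins, with NahG differences from 0.90 to 2.87 and coi1 differences from -0.97 to -0.62. ATPMEPCRB (AT4G02330), a pectin methylesterase, which removes methyl groups from pectin, gave 81.5 and 41.9 at stage 3.9 and 26.8 and 36.2 at stage 6.0 in the wild type. NahG arrays gave 445 and 242, ein2 arrays 54.6 and 38.2 and coi1 arrays 9.75 and 9.47. NahG exceeded every other array and coi1 was below every other array, without overlap. AT4G22470, a protein of the lipid-transfer family, stood at 85.1 and 36.0 in the wild type and 377 and 214 in NahG at stage 6.0. Its ein2 signals of 21.4 and 31.8 and coi1 signals of 31.0 and 31.5 were both below the wild type and overlapped each other. XTH19, a xyloglucan-modifying enzyme, was weak in senescing wild type leaves, at 16 and 7.85, and gave 63.6 and 54.0 in NahG and 2.21 and 1.61 in coi1. AT5G55180, a family 17 glycosyl hydrolase, and AT5G65660, a hydroxyproline-rich glycoprotein, had NahG signals of 241 and 226 for the first and 266 and 239 for the second, and those of AT5G55180 were above all other arrays. AT4G18280, a glycine-rich wall protein, differed widely between the wild type arrays of stage 6.0, at 810.3 and 253, and gave 76.3 and 119 at stage 3.9. The wild type array from N933 lay between the NahG arrays at 794 and 940.1, so the groups overlapped.

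The 4 genes of oxidation reactions had NahG differences from 1.06 to 1.47 and coi1 differences from -1.11 to -0.82. AT2G37130, a class III peroxidase, gave 97.4 and 141 at stage 3.9 and 491 and 441 at stage 6.0 in the wild type. Its signals were 1218 and 1235 in NahG, 183 and 235 in coi1 and 210.4 and 256 in ein2. The groups formed 3 tiers at stage 6.0, with NahG highest, the wild type between, and ein2 and coi1 overlapping at the bottom but above stage 3.9. AT5G64120, another peroxidase, gave 98.1 and 107 in the wild type, 293 and 335 in NahG, 43.7 and 45.1 in coi1 and 94.7 and 147 in ein2 at stage 6.0, so that ein2 overlapped the wild type. CYP71B22, a cytochrome P450, gave 126 and 66.8 in the wild type, 224 and 240.4 in NahG, 32.0 and 53.6 in coi1 and 53.0 and 34.9 in ein2. AT1G31710, a copper amine oxidase, was lower in the wild type at stage 6.0, with 25.7 and 25.7, than at stage 3.9, with 75.3 and 54.0. Its coi1 arrays gave 3.82 and 12.1, and the NahG arrays, at 70.2 and 71.1, were in the range of stage 3.9. Another probe set of AT1G31710 did not pass the filter on weak signals.

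The 2 transport genes differed in their stage pattern. SAG29 (AT5G13170), the sugar transporter SWEET15 and a classical senescence marker, gave 8.67 and 15.9 at stage 3.9 and 852 and 166 at stage 6.0 in the wild type. Its signals were 994 and 794 in NahG, 143 and 166 in coi1 and 85.0 and 91.5 in ein2. The 2 wild type arrays at stage 6.0 differed by more than the means of wild type and NahG, and both groups overlapped the wild type. AT3G23550, a MATE-type efflux protein, gave 241 and 45.0 at stage 3.9 and 92.0 and 115 at stage 6.0. It reached 480.0 and 631 in NahG, against 32.0 and 45.3 in ein2 and 38.5 and 28.6 in coi1, so NahG was above, and ein2 and coi1 below, both stage 6.0 wild type arrays.

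**Figure D3:**
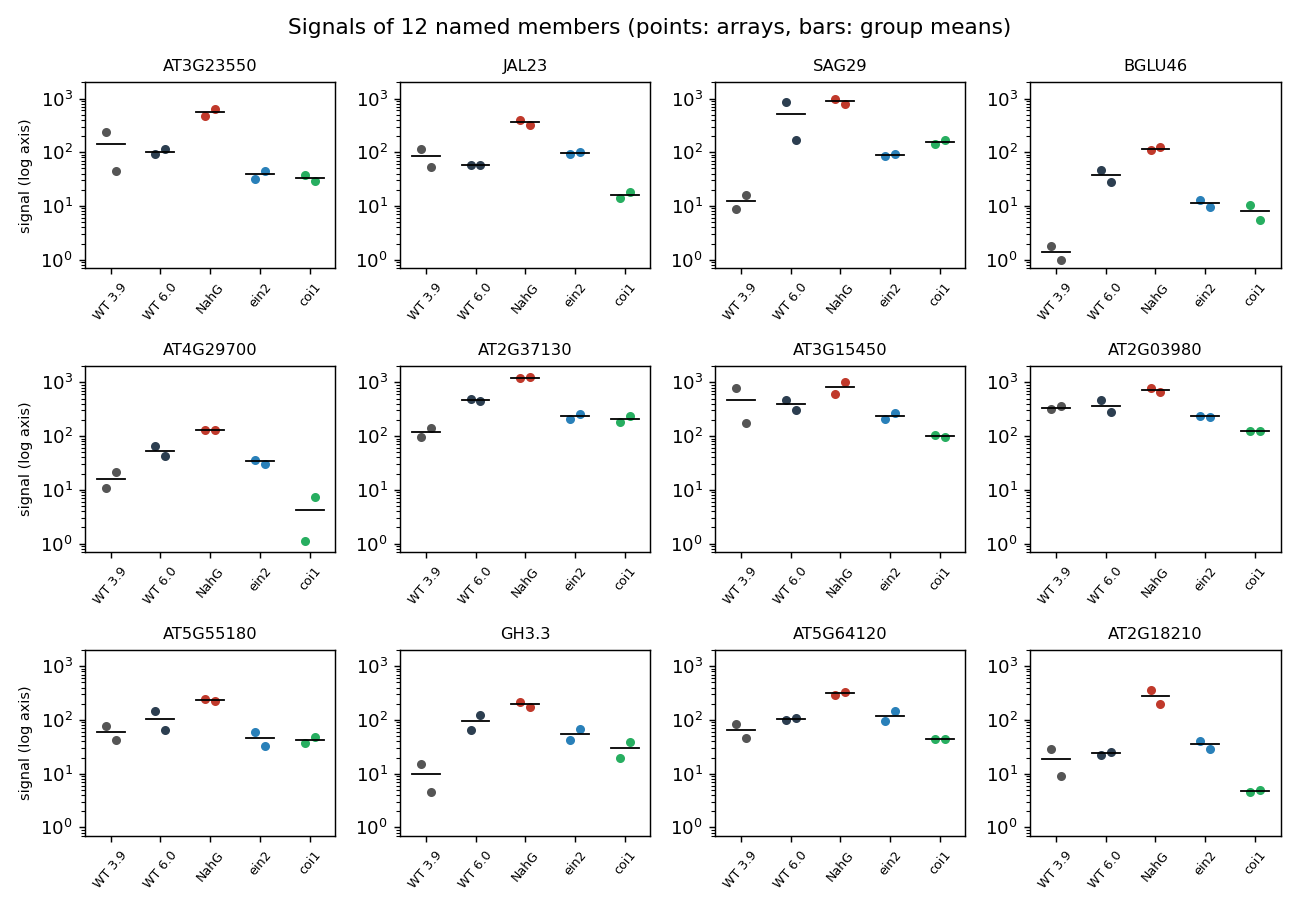
Signal (log axis, arbitrary units after scaling) of the 12 named genes with the largest smaller difference, on each of the 10 arrays, with 1 panel per gene, a point per array and a line at the mean of each group. The NahG points lie above the wild type points of stage 6.0 except for SAG29, whose wild type arrays at 852 and 166 span the range from coi1 to NahG.

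Of the 4 genes of hydrolysis and conjugation, GH3.3 (AT2G23170) joins auxin to amino acids. It gave 15.1 and 4.64 at stage 3.9, 65.2 and 125 at stage 6.0, 215 and 175 in NahG, 19.8 and 39.5 in coi1 and 42.1 and 66.7 in ein2. BGLU46, a beta-glucosidase that acts on monolignol glucosides, was at 1.82 and 1.01 at stage 3.9 and 46.4 and 27.8 at stage 6.0. It gave 111 and 123 in NahG, 10.6 and 5.44 in coi1 and 13.1 and 9.77 in ein2. In both genes the wild type was higher at stage 6.0 than at stage 3.9, and coi1 lay between these levels. AT4G29700, a protein of the alkaline phosphatase superfamily, gave 64.8 and 41.9 in the wild type, 132 and 132 in NahG and 1.11 and 7.35 in coi1, and AT2G03980, a GDSL-type lipase, gave 463 and 277 in the wild type, 792 and 673 in NahG and 126 and 123 in coi1. All 4 genes had a lower mean in ein2 than in the stage 6.0 wild type, with differences from -0.93 to -0.46.

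The 4 genes linked to carbon supply and cold had NahG differences from 0.85 to 1.66. QQS (AT3G30720), a gene known only from Arabidopsis that affects starch content, gave 91.1 and 109 in the wild type, 283 and 435 in NahG, 50.2 and 63.2 in coi1 and 112 and 142 in ein2. AT3G15450, a gene of the aluminium-induced family known to be high under sugar starvation, gave 781 and 177 at stage 3.9 and 477 and 308 at stage 6.0. It gave 619.9 and 1029.7 in NahG, 103 and 95.9 in coi1 and 209 and 265 in ein2. The coi1 difference of -1.79 was the largest in size of all 30 named genes, and its relative AT4G27450 had one of -0.57. COR15A, a cold-induced chloroplast protein, was strong everywhere, at 1537 and 982 in the wild type, 2426 and 2358 in NahG, 679 and 819 in coi1 and 1965 and 1709.6 in ein2. The remaining 7 named genes were AT1G78460, a SOUL-type heme-binding protein, and AT2G18210, AT1G19380, AT1G22890, AT2G06480, AT1G15010 and AT1G16850, whose roles are not given here. Among these, AT2G18210 had the highest NahG difference, 2.82, with signals of 22.0 and 25.6 in the wild type, 355 and 196 in NahG and 4.52 and 5.04 in coi1. AT2G06480 rests on a probe set that can bind more than 1 transcript, and 10 of the 88 are of this kind.

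The 14 probe sets in which the smaller of the NahG and coi1 differences was largest had no gene name here. The widest NahG difference was in 245928_s_at, at 224 and 145 at stage 3.9, 259 and 135 at stage 6.0, 2755 and 2428 in NahG, 15.5 and 2.62 in coi1 and 289 and 321 in ein2. The widest coi1 difference was in 259640_at, at 2378 and 709 at stage 3.9, 1019 and 1111 at stage 6.0, 3726 and 3514 in NahG, 55.3 and 72.0 in coi1 and 2223 and 1900.1 in ein2. In 245928_s_at the NahG arrays stood far above all others, and in 259640_at the coi1 arrays stood far below all others. Another pattern was that of 247573_at, at 575 and 641 in NahG, against 58.3 and 96.2 in the wild type of that stage and 119 and 9.27 at stage 3.9. It was near 0 in ein2 and coi1, at 1.71 and 1.21 in the first and 0.905 and 1.31 in the second. In 266142_at the wild type arrays were 397 and 52.5 at stage 3.9 and 124 and 253 at stage 6.0, against 983 and 869 in NahG, 6.74 and 12.9 in coi1 and 122 and 158 in ein2. In 265058_s_at the signals were 224 and 63.3 at stage 3.9 and 183 and 183 at stage 6.0 in the wild type, with 1021 and 776 in NahG, 9.05 and 11.8 in coi1 and 407 and 253 in ein2. All 5 had non-overlapping NahG, wild type and coi1 arrays at stage 6.0.

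Of the other 9 probe sets, 256243_at is given with the ein2 results. The signal of 260783_at was 99.1 and 2.72 at stage 3.9 and 46.9 and 45.9 at stage 6.0 in the wild type, with 187 and 281 in NahG, 2.11 and 1.71 in coi1 and 9.86 and 2.52 in ein2. For 258791_at it was 1905 and 820.0 at stage 3.9 and 1109.8 and 779 at stage 6.0 in the wild type, with 3798 and 2997 in NahG, 213 and 320.3 in coi1 and 236 and 335 in ein2. That of 254232_at came to 679.7 and 649 at stage 3.9 and 945 and 721 at stage 6.0 in the wild type, with 2835 and 2283 in NahG, 249.7 and 195 in coi1 and 698 and 456 in ein2. In 260783_at and 258791_at the ein2 arrays were close to or within the coi1 range, whereas in 254232_at they lay between coi1 and the wild type. The next, 258182_at, gave 14.6 and 4.53 at stage 3.9 and 82.7 and 28.7 at stage 6.0 in the wild type, with 343 and 206 in NahG, 6.84 and 6.14 in coi1 and 18.3 and 32.3 in ein2. In 259383_at the arrays gave 171 and 80.3 at stage 3.9 and 104 and 118 at stage 6.0 in the wild type, with 863 and 741 in NahG, 28.6 and 27.6 in coi1 and 222 and 148 in ein2. Those of 264886_at gave 54.6 and 15.6 at stage 3.9 and 31.0 and 68.3 at stage 6.0 in the wild type, with 236 and 152 in NahG, 10.3 and 2.42 in coi1 and 60.8 and 42.0 in ein2. The ein2 arrays overlapped the wild type in 258182_at and 264886_at and lay above it in 259383_at, and coi1 was below them in each case. For 249101_at the signals were 0.807 and 6.05 at stage 3.9 and 96.7 and 8.96 at stage 6.0 in the wild type, with 293 and 362 in NahG, 0.704 and 7.25 in coi1 and 10.1 and 23.4 in ein2. Last came 259609_at, at 75.5 and 30.3 at stage 3.9 and 41.9 and 94.7 at stage 6.0 in the wild type, with 205 and 180.2 in NahG, 8.45 and 4.63 in coi1 and 134 and 69.9 in ein2. The stage 6.0 wild type arrays of 249101_at differed widely, with array 2 close to coi1, and in 259609_at ein2 overlapped the wild type.

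The comparison of ein2 with the wild type at stage 6.0 asks whether loss of ethylene signalling moved the same genes. It took no part in the choice, but it shares its wild type arrays with the comparisons that did, so an array with an unusual wild type signal enters all of them. By limma's moderated test with Benjamini-Hochberg adjustment over all 12184 probe sets, 3 of the 88 fell in ein2, which is 3.41%, against 0.0739% of all probe sets tested, and they were 3 of the 9 that fell in the whole table. None of the 88 rose, against 0.0492% of all, while 7 had an unadjusted p under 0.05 in that direction, which is 7.95% against 4.52%. At an unadjusted p under 0.05, 24 of the 88 were lower, which is 27.3% against 5.55%. A similar share, 23.9%, was lower among the 823 probe sets that met the coi1 limit without the NahG limit. Among the 157 that met the NahG limit without the coi1 limit it was 1.91%. On the higher side the shares were 0.365% of the 823 and 29.9% of the 157. However, 27 of the 88 reached the filter of a signal of 50 on 2 arrays only with the help of the NahG arrays, where the choice required a high signal. The named genes among these were XTH19, AT4G29700, BGLU46, AT2G18210, AT2G06480 and PR-1-LIKE. Over the 61 that met the filter on the other 8 arrays, an alternative chosen after seeing the data, 18 were lower at an unadjusted p under 0.05, which is 29.5% against 5.49% of all probe sets that met it. On the higher side there were 6, which is 9.84% against 4.55%. The same 3 passed on the lower side, which is 4.92% against 0.0756%. The signals of the 88 spread more between arrays of a group than most, with a median standard error of 0.318 against 0.213 over all probe sets.

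The 3 that fell have no gene name here. The signal of 258434_at was 1379 and 2639.9 at stage 3.9, 1886 and 894 at stage 6.0 and 2570.0 and 2629 in NahG, against 56.5 and 86.2 in ein2 and 412 and 457 in coi1. It was -3.93 ± 0.36 (SE) from the wild type in ein2, adjusted p = 0.00229, and both ein2 arrays were below both coi1 arrays. The signal of 260492_at was 7.87 and 8.47 at stage 3.9, 225 and 112 at stage 6.0, 227 and 370.3 in NahG, 15.8 and 1.81 in coi1 and 19.0 and 18.5 in ein2, with an ein2 difference of -2.34 ± 0.35, adjusted p = 0.0389. That of 256243_at was 27.9 and 20.0 at stage 3.9 and 129.6 and 106 at stage 6.0 in the wild type, with 469 and 479 in NahG, 18.8 and 31.6 in coi1 and 11.7 and 35.2 in ein2. Its ein2 difference was -1.83 ± 0.28, adjusted p = 0.0409. In 260492_at and 256243_at the wild type was high at stage 6.0 and low at stage 3.9. The ein2 and coi1 signals at stage 6.0 lay nearer the stage 3.9 level, although both ein2 arrays of 260492_at were above both stage 3.9 arrays. Without ein2 array 1 none of the 3 passed, with differences of -3.69, -2.35 and -1.38 and adjusted p of 0.0594, 0.186 and 0.173, and no probe set of the whole table passed in that fit. The count was 1 without wild type stage 6.0 array 1, without either NahG array or without coi1 array 1, and it was 9, 10 and 7 without wild type stage 3.9 array 1, stage 3.9 array 2 and stage 6.0 array 2. In these last 3 fits the count over the whole table rose with it, from 9 to 42, 44 and 30. With the stock of the wild type arrays as a block it was 6, of 41 in the whole table.

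**Figure D4:**
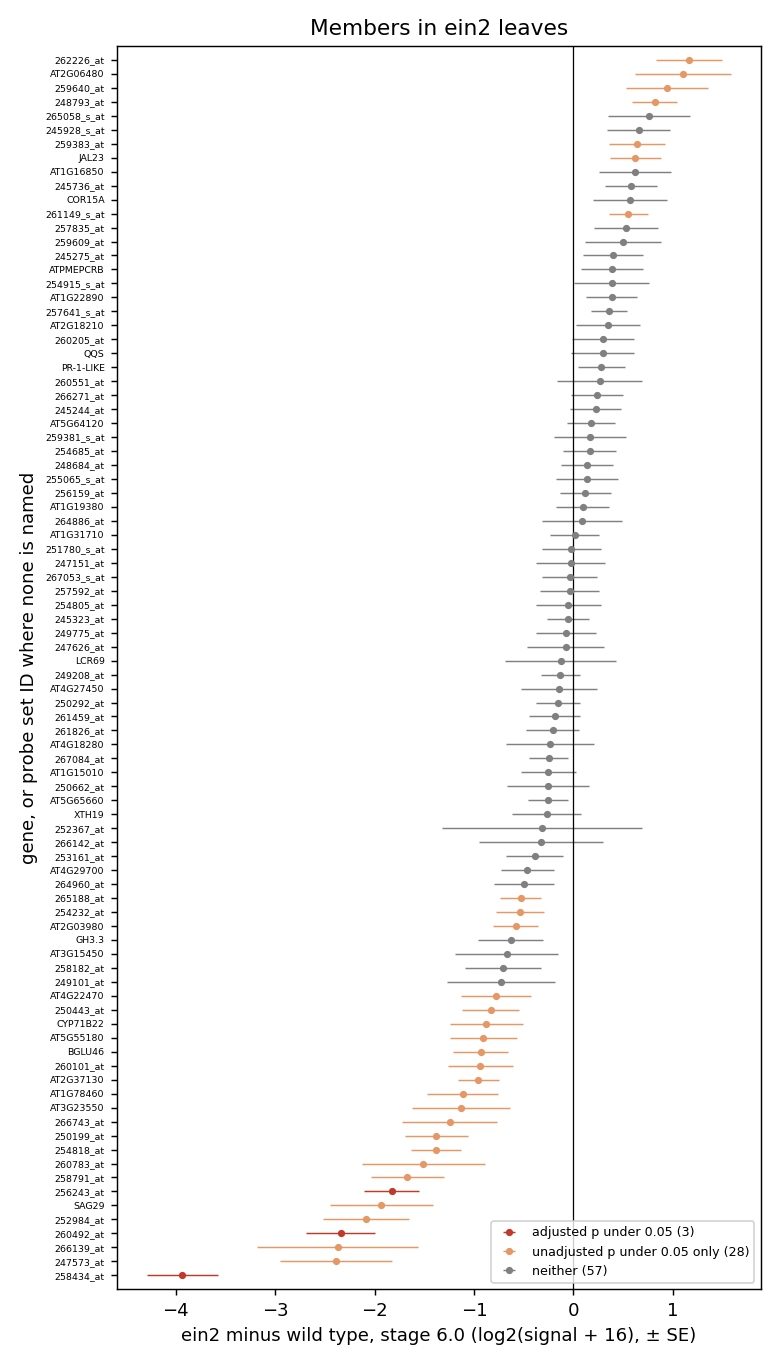
Difference of ein2 from the stage 6.0 wild type (log2 of the signal plus 16, with the standard error as a bar) for each of the 88 probe sets in order, with the 3 that passed the test in red and those with only an unadjusted p under 0.05 in orange. The differences run from -3.93 to 1.16, with 53 below 0 and 35 above.

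No named gene passed in ein2 at stage 6.0. The lower means with the smallest p were those of the peroxidase AT2G37130, at -0.96 ± 0.21 (SE) with adjusted p = 0.118, and of the transporter SAG29, at -1.93 ± 0.52 with adjusted p = 0.209, by limma's moderated test. SAG29 passed without wild type stage 6.0 array 2, at -3.06 with adjusted p = 0.000621, and stood at -0.81 with adjusted p = 0.356 without array 1 of that group. AT2G37130, AT1G78460 and AT3G23550 passed when either stage 3.9 array was left out. A further 7 named genes had an unadjusted p under 0.05 on the lower side, BGLU46, AT1G78460, AT5G55180, AT2G03980, CYP71B22, AT3G23550 and AT4G22470, and 2 on the higher side, JAL23 and AT2G06480. Of these, BGLU46 and AT2G06480 met the filter only with the help of the NahG arrays. The other 19 named genes lay between -0.67 and 0.62. Both ein2 arrays were below both wild type arrays in 29 of the 88, which is 33% against 21% of all probe sets. They were above both in 21, which is 23.9% against 20.1%. In the 823 that met the coi1 limit alone these shares were 45.8% and 4.25%, and in the 157 that met the NahG limit alone 8.28% and 54.1%. The median ein2 difference of the 88 was -0.13, against 0.01 over all probe sets. It was 0.34 in the 157 probe sets that met the NahG limit without the coi1 limit, and -0.29 in the 823 that met the coi1 limit without the NahG limit. All 3 sets were picked against the same wild type arrays that ein2 is compared with.

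Against the wild type at stage 3.9, 18 of the 88 were higher in senescing ein2 leaves and 10 were lower by the same test, which are 20.5% and 11.4%, against 18.4% and 16.1% of all probe sets. These shares are near the background. Among the named genes 8 were higher and 5 lower. AT1G16850 was higher by 1.58 ± 0.36 (SE) with adjusted p = 0.00636, and AT5G65660 was lower, at -1.02 ± 0.20 with adjusted p = 0.00254, and both passed without any one array. GH3.3, at 1.45 ± 0.33, AT4G18280, at 1.85 ± 0.44, and AT2G37130, at 0.90 ± 0.21, were higher with adjusted p of 0.00593, 0.00818 and 0.00693, and each missed the threshold without ein2 array 2. The calls of SAG29, AT5G64120, AT1G22890 and COR15A on the higher side and of AT1G78460, CYP71B22, XTH19 and AT1G31710 on the lower side each depended on more than 1 array. XTH19 entered the test only through its NahG signals, since no other array reached 50. Without wild type stage 3.9 array 1 the differences of CYP71B22, AT1G78460 and COR15A, at -1.09, -1.09 and 1.11 with all arrays, were -0.50, -0.40 and 0.40. That of AT5G64120, at 0.78, was 0.43 without stage 3.9 array 2 and 0.50 without ein2 array 2. Without ein2 array 2 the count on the higher side was 8. The count on the lower side also changed with the array left out. Without NahG array 1 only 71 of the 88 still met the filter, and without NahG array 2 only 72, so some of the 88 were not tested there.

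The wild type change between the stages split the 88. It was 1 or more in 22, which is 25%, against 10.3% of all probe sets. The share was higher, 39.7%, in the 823 that met the coi1 limit without the NahG limit. It was 12.1% in the 157 that met the NahG limit without the coi1 limit. In the rest of the 88 the change was 0.5 to under 1 in 11, within 0.5 of 0 in 41 and -0.5 or less in 14. The 22 included SAG29, GH3.3, AT4G18280, AT2G37130, BGLU46 and AT4G29700 among the named genes. Of these 22, the ein2 mean was below the stage 6.0 wild type in 20, against 71.2% of all 1254 probe sets with such a change, and above the stage 3.9 wild type in 20, against 99.5%. Both comparisons share wild type arrays with the stage change itself.

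The 2 wild type stocks were compared across both stages. The array from N1644 was below the one from N933 at both stages in 38 of the 88, which is 43.2% against 24.7% of all probe sets, and the median difference was -0.44 at stage 3.9 and -0.20 at stage 6.0. With stage in the model, none of the 88 passed between the stocks by limma's moderated test, against 0.00821% of all on the lower side and 0.0246% on the higher. At an unadjusted p under 0.05, 26 were lower in N1644, which is 29.5% against 4.42% of all, and 2 were higher, which is 2.27% against 5.35%. Among the 823 probe sets that met the coi1 limit without the NahG limit, 15.4% were lower and 9.11% higher. Among the 157 that met the NahG limit without the coi1 limit, 10.8% were lower and 2.55% higher. AT3G15450 at stage 3.9, with 781 and 177 in N933 and N1644, and SAG29 and AT4G18280 at stage 6.0 are cases of a lower signal in N1644. The change between the stages ran in opposite directions in the 2 stocks, by at least 1 in each, in 4 of the 88, against 0.123% of all probe sets. The part of the stock difference in the choice was not tested.

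**Figure D5:**
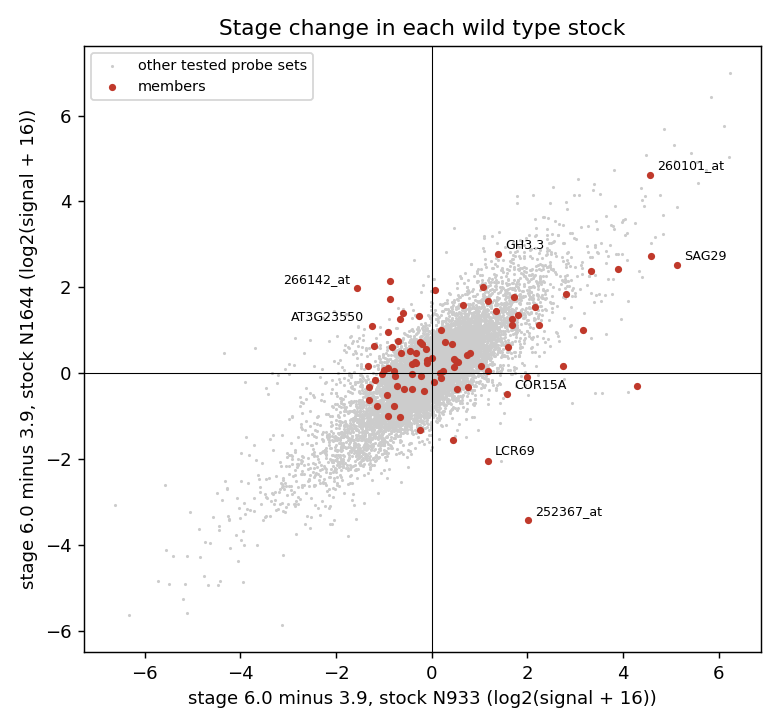
Change from stage 3.9 to stage 6.0 (log2 of the signal plus 16) in stock N933 (x axis) and in stock N1644 (y axis) for each of the 88 probe sets, 1 array per point and axis. Points at the upper left and lower right changed in opposite directions, as 252367_at did with 2.02 and -3.42.

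The known genes of the pathways are thinly covered by the names used here. Of 42 listed jasmonate genes 7 are named and 6 were tested, of 27 salicylate genes 4 and of 29 ethylene genes 5. None of these 15 tested genes is among the 88, and 5 of them, JRG21, BSMT1, THI2.1, PDF1.2 and PDF1.2b, were left out by name, so that they could not be. None passed in ein2 at stage 6.0 in either direction by limma's moderated test, and at an unadjusted p under 0.05 there were 4 on the lower side and 0 on the higher. The jasmonate and ethylene defensin PDF1.2 gave 1277 and 167 at stage 3.9, 239 and 156 at stage 6.0, 4246 and 4021 in NahG, 7.74 and 16.3 in coi1 and 20.7 and 5.64 in ein2. Besides being left out by name, it missed the limits by its stage change of -1.22. Its ein2 difference was -2.89 ± 0.67 (SE) with adjusted p = 0.142, and that of PDF1.2b was -2.38 ± 0.58 with adjusted p = 0.158. Against stage 3.9, 4 of the 5 ethylene genes were lower in ein2, as were 16.1% of all probe sets tested. These 4, RTE1, ARL, PDF1.2 and PDF1.2b, also had lower means at stage 6.0 than at stage 3.9 in the wild type. Their wild type changes were -0.60, -0.42, -1.22 and -1.96, and this comparison does not separate ein2 from stage. Of the salicylate genes, WRKY53, a senescence regulator, gave 193 and 166 in the wild type and 26.4 and 32.1 in NahG, and SAI-LLP1, a salicylate-induced lectin-like protein, gave 1638 and 1382 in the wild type and 1.51 and 0.906 in NahG. Both were lower in NahG, opposite in direction to the 88. In coi1 their means were lower too, at -0.48 and -0.75, the same direction as the 88. GRX480 and SAG101, also on the salicylate list, had NahG differences of -1.97 and -0.66 and coi1 differences of -1.62 and -0.53.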

How the data were processed

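Leaf RNA was measured on 10 Affymetrix ATH1 arrays, 2 in each of 5 groups, grouped by the deposited labels. The deposited values are signal intensities from MAS5, per the submitters' processing notes, on a linear scale, and each array's trimmed mean is near 100. Of 22810 probe sets, the 64 controls were left out. Each array was scaled to a 2% trimmed mean of 100, the filter on weak signals asked for 50 on 2 or more of the arrays (12184 passed), and log2 of the signal plus 16 was fitted over all 5 groups with limma 3.58.1 in R 4.3.3 (lmFit, eBayes with trend). P-values were adjusted by Benjamini-Hochberg within a comparison, with 0.05 as the threshold. Absolute read depth has no counterpart on arrays, and their number limits the precision.

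The probe sets and gene lists were chosen with earlier results of these data known. NahG, coi1 and stage differences chose the probe sets and were not tested. The comparisons tested were ein2 with the wild type of each stage, and the wild type stocks. Role groups of the named genes were assigned after their values were seen. Values on every array were given for the 14 probe sets in which the smaller of the 2 choosing differences was largest and for those that passed in ein2. Gene names came from the GEO platform annotation, updated through a RefSeq table where a locus matched: 13513 probe sets name 1 gene, 503 several and 8730 none. The fit was tested on simulated data. The numbers of the wild type arrays mark shared stocks (N933 and N1644), and those of the other groups mark nothing shared. Alternatives were other added constants, other filters, quantile normalization, signals as deposited, fits on the 2 groups alone, eBayes without trend, the stock as a block, and leaving out each array. A filter on the 8 arrays other than NahG was added after seeing the data.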

Additional observations from a re-analysis of the deposited data

Results flagged for a closer look

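In 4 of the 88 probe sets the wild type change between the stages ran in opposite directions in the 2 stocks, by at least 1 in each, as in 0.123% of all probe sets tested. In 252367_at it was 2.02 in N933 and -3.42 in N1644. In LCR69, a plant defensin, it was 1.18 in N933 and -2.04 in N1644. The change in AT3G23550, a MATE-type efflux protein, was -1.25 in N933 and 1.1 in N1644, and that in 266142_at was -1.56 and 1.98. Each change rests on 1 array per stock and stage, and the difference between the stocks in the stage change was not tested.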

How the results depend on the processing

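The choice of 88 depended most on the added constant: 45 probe sets met the limits with 64 added, 43 of them among the 88, and 111 met them with 1 added. Leaving out 1 array gave 70 to 93, with 57 of the 88 still chosen without wild type stage 6.0 array 2. Signals as deposited gave the same 88, and a filter on the 8 arrays other than NahG, chosen after seeing the data, left 61 of them. The count that fell in ein2 against stage 6.0 (3) was 1 with 1 added, without the filter and in the fit on the 2 groups, 6 with the replicate block (wild type stock), and 0 to 10 when 1 array was left out. Against stage 3.9, the lower count (10) was 6 in the fit on the 2 groups and 5 to 18 when 1 array was left out, and the higher count (18) was 8 to 25. With the block, 12 were lower against stage 3.9. No probe set of the 88 rose in ein2 at stage 6.0, and none passed between the stocks, under any alternative run. Only some of the 88 were followed singly. For ein2 against stage 6.0 these were the 3 that fell and the named genes with an unadjusted p under 0.05 by limma's moderated test. For ein2 against stage 3.9 they were the named genes that passed. Their values were counted once under each alternative, so each enters many times. Those that had passed still passed in 242 such cases and did not in 73. Those that had not passed still did not in 206 cases and did in 7. No sign changed among the values followed, the signs of the other probe sets were not followed, and the cause was not tested. With 2 arrays a group and coi1 signals under 16 in many of the 88, small differences at low signal cannot be resolved.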
